A study of Mus musculus with 7 samples.

Results

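The TRIM (tripartite motif) genes of the mouse were followed in bone-marrow-derived macrophages (BMDMs). They were taken by name, as protein-coding genes whose symbol is Trim, a number and at most 1 letter, and which were listed in both deposited tables, with no use of any measured value. This gave 68 genes, out of 48440 genes in the table of the LPS experiment and 55352 in that of the AAV experiment. Of these, 44 passed a mean of at least 1 in the LPS table and 39 passed a mean of at least 1 TPM in the AAV table, so 24 and 29 members were too low to compare.

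BMDMs from wild-type (WT) C57BL/6 mice, grown with M-CSF, were sequenced in 2 experiments. In the first, cells were left without treatment (0 h) or given LPS, the bacterial lipopolysaccharide sensed by TLR4, at 100 ng per mL for 2 h or 4 h; each condition has 1 library. In the second, transduction lasted 48 h: WT cells received adeno-associated virus (AAV) with GFP, and cells labelled Shisa3 overexpression received AAV with Shisa3, at 2 samples per group. The vector is of serotype 1 in the study, the AAV-GFP group is the control for transduction, and no sample of the second experiment received LPS. Nothing in the labels says whether the 2 samples of a group came from separate mice or cultures, so p-values here measure the spread between these samples, which may be technical. In bulk RNA of this kind, fewer cells that express a gene and less RNA per cell cannot be told apart.

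TRIM proteins share an N-terminal RING domain, B-box domains and a coiled coil, and most act as E3 ubiquitin ligases that attach ubiquitin, or in some cases SUMO or ISG15, to their targets. The C-terminal domain chooses the target: PRY-SPRY in the largest subfamily, NHL repeats, a PHD finger with a bromodomain, or a transmembrane segment in others. In macrophages the family is best known for tuning the sensing of viral RNA, DNA and bacterial products upstream of NF-κB and interferon, and many PRY-SPRY members are themselves induced by interferon.

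The 0 h library held 15588502 reads and the 4 h library 32659392; the 2 h library was the shallowest, with 7263258: 3 reads, the smallest count used as a floor, are worth a value of 6.55 there against 1.93 at 0 h and 1.63 at 4 h. The depth of the AAV samples is unknown. None of the 8 macrophage markers checked was at 0 in all samples. In the AAV samples they summed to between 34736 and 38318 TPM, of which Lyz2 alone gave 26378 to 29528 TPM. B cell markers summed to at most 0.33 TPM there and erythroid markers to at most 0.87 TPM. T cell markers summed to 5.85 to 10.51 TPM, of which Cd4 gave 5.76 to 10.39 TPM, while Cd3e, Cd3d and Trac were at 0. Fibroblast markers summed to 9.39 to 16.29 TPM. Shisa3 itself was 7.88 and 10.9 TPM in AAV-GFP and 12.3 and 17.8 TPM in AAV-SHISA3, both samples higher, with a limma adjusted p of 0.138 that missed the threshold; in the LPS experiment it had 1 read at 0 h, 164 at 2 h and 3174 at 4 h. Whether the vector's copy of Shisa3 is counted by the annotation is not given in the sources used here, so its AAV values may not measure the transgene.

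Promoter windows of RefSeq on GRCm38.p6, running from 250 bases before to 50 bases after a gene's start, were found for 53 of the 68 members. The interferon-stimulated response element, searched as GAAANNGAAA on both strands, was in a window of 9 of these 53 (17.0%) and in 3.99% of all 27025 genes with a window (3.44% of all windows). The stretches below are shown because 7 of the 8 belong to members at least 2-fold higher at 4 h of LPS, and the last, of Trim5, to a close relative that was not. Capitals mark the element, which in Trim21 and Trim26 is a pair of overlapping matches; all stretches are 5′ to 3′ on the gene's strand.
Trim21, chr7:102565453-102565499, minus strand: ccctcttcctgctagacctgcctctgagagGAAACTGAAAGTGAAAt
Trim26, chr17:36836956-36837031, plus strand: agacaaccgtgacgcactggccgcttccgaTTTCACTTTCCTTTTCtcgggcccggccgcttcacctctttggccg
Trim30a, chr7:104465190-104465259, minus strand: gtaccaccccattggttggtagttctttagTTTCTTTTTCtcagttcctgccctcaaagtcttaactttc
Trim30d, chr7:104507851-104507920, minus strand: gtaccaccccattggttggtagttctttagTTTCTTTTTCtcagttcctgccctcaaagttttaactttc
Trim34a, chr7:104244437-104244486, plus strand: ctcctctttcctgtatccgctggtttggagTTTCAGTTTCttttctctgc
Trim12a, chr7:104315466-104315515, minus strand: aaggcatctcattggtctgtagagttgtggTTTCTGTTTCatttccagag
Trim12c, chr7:104353339-104353408, minus strand: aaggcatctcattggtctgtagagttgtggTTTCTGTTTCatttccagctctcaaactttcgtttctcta
Trim5, chr7:104288116-104288185, minus strand: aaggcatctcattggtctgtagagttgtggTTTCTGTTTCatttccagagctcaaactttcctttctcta

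The element and its flanks were nearly the same in Trim30a and Trim30d, and in Trim12a, Trim12c and Trim5, which are tandem copies on chromosome 7 and are not independent instances. The ninth gene with a match was Trim2, at the far end of its window. A κB element, searched as GGGNNTTTCC on both strands, was in none of the 53 members against 1.90% of all genes, and a GAS element, TTCNNNGAA, was in 6 of 53 (11.3%) against 9.55% of all genes; none of these 6 had the first element, so the matches of different motifs did not overlap. A match in these letters is a description of the sequence only, and a missing one says nothing about the factor.

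A large part of the family was silent or nearly so in these cells. There were 16 members with no read in any LPS library, 12 listed at 0 TPM in all 4 AAV samples and 10 at 0 in both experiments. The silent members included the muscle RING finger gene Trim63 and Trim10, known from red cell development. Of the 13 members known for roles in RIG-I, cGAS-STING, TLR or NF-κB signalling, Trim31 and Trim38 were near absent, with 2 and 3 reads at 0 h and none at 2 h or 4 h.

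Among expressed members, levels per length differed widely. In AAV-GFP, 39 members averaged at least 1 TPM, 23 at least 10 TPM and 10 at least 50 TPM. The highest was Trim25, a ligase linked to the RNA sensor RIG-I, at 148 ± 7.95 TPM (SD, n = 2). Trim30a, which restrains TLR signalling through TAB proteins, followed at 113 ± 0.375 TPM (SD, n = 2). Trim14, an adaptor without a RING domain that acts at MAVS, stood at 111 TPM with samples of 108 and 114 TPM, which overlap those of Trim30a.

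The next in order were Trim28 and Trim41. Trim28, the corepressor of KRAB zinc finger proteins also called KAP1, had 93.0 and 87.4 TPM, and Trim41 had 71.7 and 93.7 TPM, so this pair overlapped as well. In the 0 h library of the other experiment the 5 highest, in reads per kilobase of exon scaled to the library total (RPKM), were Trim30a at 41.9, Trim28 at 35.1, Trim25 at 34.7, Trim8 at 30.6 and Trim41 at 24.6. Across the 39 members the 0 h level and the AAV-GFP mean had a Spearman rho of 0.82, so the order was broadly alike. The value is a description, since both are levels of the same genes with the same lengths. Trim14, at rank 3 in AAV-GFP, was at rank 19 at 0 h, with 8.65 RPKM. Trim17, at rank 8 at 0 h, was too low in the AAV samples to be among the 39.

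At 4 h of LPS, members were called in both directions. Members of the Trim30 group, Trim21 and Trim13 were 9.10 to 27.5 times their level at 0 h, while Trim16, Trim47 and Trim65 lost most of their signal. A member was called when log2(value + 1) differed by at least 1, that is 2-fold; with 1 library per time point there is no test, and intervals in this text are 95% exact intervals of the ratio that cover counting error only. By this rule 18 of the 44 members compared were higher at 4 h, beside 22.2% of all 17854 genes compared, and 11 were lower, beside 23.6%. The median difference of the 44 members was -0.21 on the log2 scale, beside -0.04 for all genes.

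The scaling of the libraries moved these counts. With reads scaled to the library totals, the median of all genes moved to -0.81 at 4 h and to -0.68 at 2 h, and centring each library moved it to 0.33 and 0.26. At 4 h, totals left 11 members higher, beside 13.1% of all genes, and 22 lower, beside 43.5%. The 11 lower by totals only were Trim5, Trim6, Trim23, Trim27, Trim28, Trim32, Trim33, Trim39, Trim41, Trim44 and Trim45, so each statement below that one of these was within 2-fold holds for the deposited values. Calls that held with the deposited values, centred values, library totals and TMM factors alike are named as holding in all 4 scalings: 11 higher, beside 13.1% of all genes, and 9 lower, beside 17.0%. Of these, 9 and 8 had at least 30 reads in 1 of the libraries compared, and Trim58 and Trim69, called higher on 7 reads each at 4 h, are not described further.

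**Figure D1:**
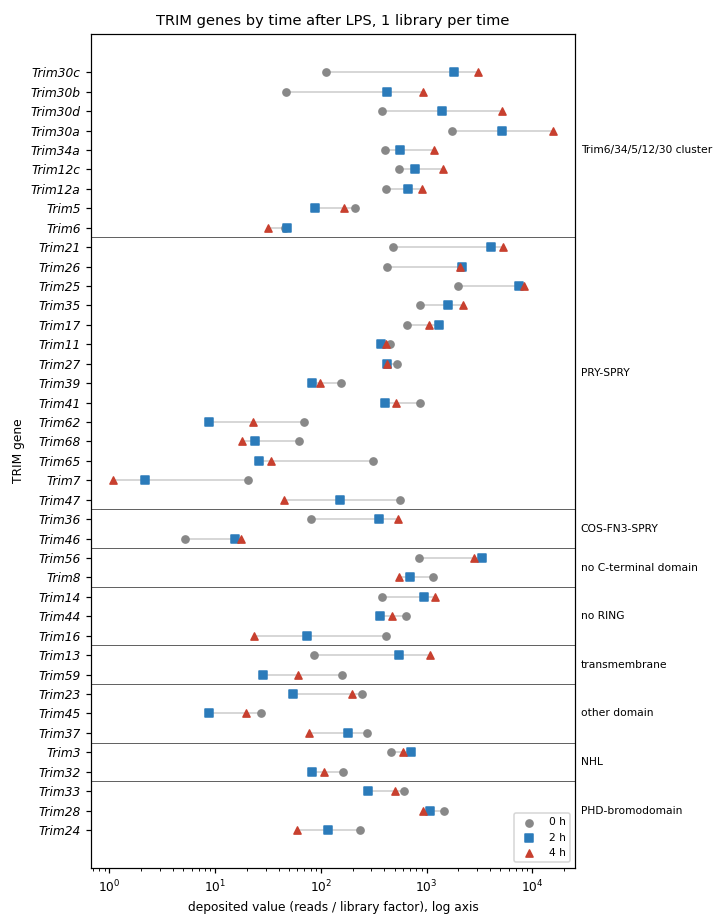
Deposited value (reads divided by a factor per library, log axis) of the 40 TRIM genes with at least 30 reads at 0 h or 4 h, with 1 point per library and rows grouped by domain. In the top group 7 genes run from 0 h on the left to 4 h on the right, Trim30a reaching 15734, whereas Trim16, Trim47 and Trim65 run the other way.

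The chromosome 7 cluster of PRY-SPRY genes, the mouse counterpart of the human TRIM5 cluster, lies between 104218793 and 104507849 on GRCm38 and holds 10 members, all of which were compared. At 4 h 7 of them were higher, beside 22.2% of all genes, 4 in all scalings, beside 13.1%, and none was lower, beside 23.6%, although Trim5 and Trim6 were lower by library totals. Trim30a started at a value of 1728 and had 5193 after 2 h and 15734 after 4 h, the highest per length of any member at 4 h, with a ratio of 9.10 (interval 8.75 to 9.47; 5.14-fold by library totals). Its neighbour Trim30d went from 380.2 to 1408 and 5172, 13.6-fold higher at 4 h (12.5 to 14.8; 7.69-fold by totals).

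Both kept rising between 2 h and 4 h, by 3.03-fold for Trim30a and 3.67-fold for Trim30d. Trim30c went from 112 to 1817 and 3076, which at 27.5-fold (23.6 to 32.1; 15.5-fold by totals) is the largest ratio in the family, and most of it was in place at 2 h, at 16.2-fold. Trim30b, low at 0 h with 73 reads, went from 47.0 to 421 and 922, 19.6-fold at 4 h (15.5 to 25.2; 11.1-fold by totals). All 4 genes were ordered 0 h, 2 h, 4 h.

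The other members of the cluster moved less. Trim34a had values of 401, 566 and 1176, Trim12c 551, 773 and 1419, and Trim12a 414, 673 and 899, with 4 h ratios of 2.93, 2.58 and 2.17, none of which reached 2-fold by library totals. Trim5 fell from 212 to 87.3 at 2 h and stood at 166 at 4 h, and Trim6 had 45.7, 48.0 and 31.5. Trim5 and Trim12c, whose promoter stretches carry the same element, had 4 h ratios of 0.786 and 2.58.

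Reads of these copies may not be fully separable. Of all 31-base words of the transcripts, 48.7% of those of Trim34a also occur in Trim34b, 52.9% of those of Trim5 and 47.7% of those of Trim12c occur in other genes, against 11.8% for Trim30a and 11.9% for Trim30d. How the counting treated shared reads is not given in the sources used here. Trim34b itself had 5, 1 and 10 reads.

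Outside the cluster, the other PRY-SPRY members, leaving out the COS-box and RING-less genes that were grouped apart, were called in both directions: of 16 compared at 4 h, 6 were higher, beside 22.2% of all genes, and 5 lower, beside 23.6%. The 6 include Trim58 and Trim69, and the other 4 had at least 30 reads. Trim21, the cytosolic antibody receptor, had values of 481, 4033 and 5341, 11.1-fold higher at 4 h (10.3 to 11.97; 6.27-fold by totals). Trim25 had 2004, 7540.2 and 8275, 4.13-fold (3.97 to 4.29; 2.33-fold by totals). Trim26, linked to IRF3 and TAB1 turnover, had 426, 2151 and 2075, 4.87-fold (4.48 to 5.29; 2.75-fold by totals).

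These 3 genes had reached most of their rise by 2 h, at 8.38-fold, 3.76-fold and 5.04-fold, and their 4 h to 2 h ratios were 1.32, 1.10 and 0.965. Trim35 had 872, 1603 and 2217, 2.54-fold at 4 h but 1.44-fold by totals. Trim17, at 659, 1325 and 1048, was 2.01-fold at 2 h and 1.27-fold by totals; it shares 708 exonic bases on the same strand with the histone gene Hist3h2a, which had 821, 1426 and 1203, and reads of this pair cannot be told apart there.

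The falling PRY-SPRY genes were lower in all 4 scalings. Trim47 went from 562 to 151 and 44.6, 12.6-fold lower at 4 h (10.1 to 16.02; 22.3-fold by totals), and went on falling between 2 h and 4 h by 3.38-fold. Trim65, a ligase of the RNA sensor MDA5, went from 310.1 to 26.2 and 33.7, 9.20-fold lower at 4 h (7.05 to 12.2), with its lowest value at 2 h. Trim47 and Trim65 lie side by side on chromosome 11 and share 225 exonic bases on the same strand.

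Trim68 went from 61.8 to 24.02 and 17.9, 3.44-fold lower at 4 h (2.30 to 5.28). Trim62 went from 68.8 to 8.73 and back to 22.8, 3.02-fold lower at 4 h (2.09 to 4.42) on 42 reads. Trim7 had 32 reads at 0 h, 1 at 2 h and 2 at 4 h, a 4 h ratio of 0.0528 (0.00613 to 0.207). Trim11, Trim27, Trim39 and Trim41 were within 2-fold at 4 h, with ratios between 0.588 for Trim41 and 0.921 for Trim11; by library totals these were 0.332 and 0.520, and Trim27 at 0.451 and Trim39 at 0.359 were also past 2-fold lower. Trim41 was at 0.463 at 2 h.

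**Figure D2:**
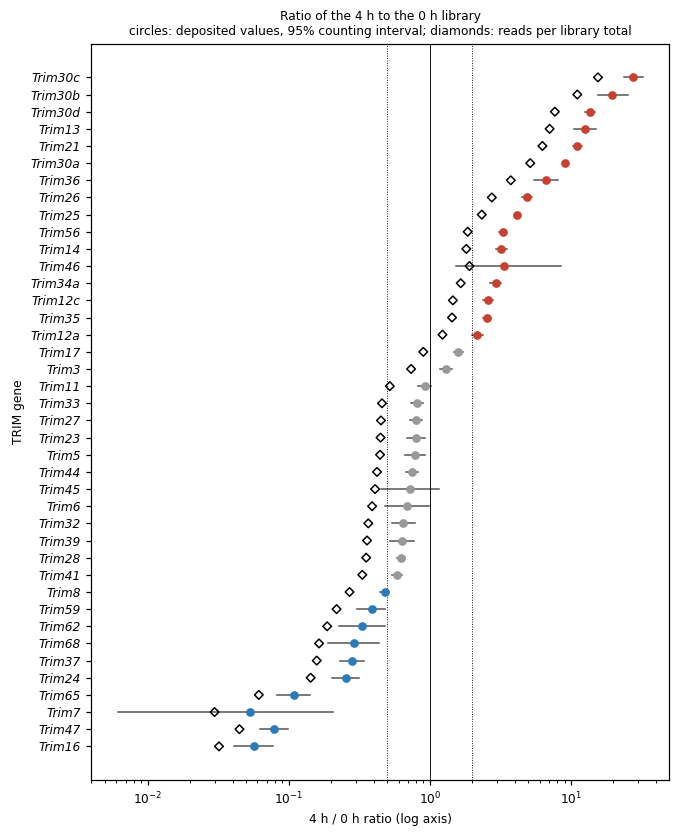
Ratio of the 4 h to the 0 h library (log axis) for the 40 TRIM genes with at least 30 reads, with circles for deposited values and their 95% counting intervals, and diamonds for reads scaled to library totals; dotted lines mark 2-fold. The circles run from 0.0528 for Trim7 to 27.5 for Trim30c, and every diamond lies to the left of its circle.

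Members without a C-terminal domain or without a RING went different ways. Trim56, a ligase of the cGAS-STING pathway with no named C-terminal domain, had values of 853, 3326 and 2799, highest at 2 h, with 3.90-fold at 2 h (3.62 to 4.20) and 3.28-fold at 4 h (3.09 to 3.49; 1.85-fold by totals). Trim8, of the same class and known from TNF and SOCS1 signalling, had 1139, 690.0 and 544, 2.09-fold lower at 4 h (1.94 to 2.27; 3.71-fold by totals); centring the libraries ended this call, at -0.69 on the log2 scale. The RING-less Trim14 had 376, 939 and 1207, 3.21-fold higher (2.93 to 3.52; 1.81-fold by totals).

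Trim16, another RING-less member, known from the clearance of damaged membranes, showed the largest fall of any member with over 40 reads at 4 h. It went from 412 to 74.2 and 23.4, 17.6-fold lower (12.9 to 24.6; 31.2-fold by totals), on 640 reads at 0 h and 43 at 4 h. Fbxw10, which shares 237 exonic bases with it on the same strand, had 65, 3 and 0 reads. Trim44 had 636, 360.3 and 475, a 4 h ratio of 0.747, or 0.422 by totals. The exons of Trim14 overlap those of Nans on the opposite strand over 1356 bases, and whether strand was used in counting is not given in the sources used here; Nans had values of 443, 338 and 262.

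The transmembrane ligases went opposite ways. Trim13, anchored in the endoplasmic reticulum, rose from 85.6 to 548 and 1069, 12.5-fold at 4 h (10.5 to 15.01; 7.06-fold by totals), although 28.7% of its 31-base words also occur in the gene Gm9359. Trim59 fell from 159 to 28.4 and was at 61.4 at 4 h, 2.59-fold lower (2.06 to 3.26; 4.58-fold by totals), a call that centring ended at -0.99 on the log2 scale. Of the COS-box genes that bind microtubules, Trim36 rose from 80.4 to 358 and 533, 6.63-fold (5.50 to 8.05, and 3.75-fold by totals). Trim46 went from 5.15 to 15.3 and 17.4, on only 8, 7 and 32 reads, and was called higher at 4 h, but not in all 4 scalings.

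Of the 3 chromatin co-regulators compared, with a PHD finger and bromodomain, none was higher by the deposited values, beside 22.2% of all genes. Trim24 was lower, 1 of 3, beside 23.6%, and by library totals all 3 were lower, beside 43.5%. Trim24, a nuclear receptor co-regulator, went from 236 to 116 and 59.8, 3.95-fold lower at 4 h (3.18 to 4.93; 6.99-fold by totals). Trim33, a co-regulator of SMAD signalling, went from 614 to 282 and stood at 498 at 4 h, a ratio of 0.811 (0.458 by totals). Trim28 had 1463, 1072 and 917, a ratio of 0.626 at 4 h (0.354 by totals).

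Trim3 and Trim32, the NHL genes with enough reads, were within 2-fold by the deposited values. Trim3, linked to vesicle traffic, had 463, 709.7 and 604, and its 4 h ratio of 1.30 became 0.737 by totals. Trim32 had 163, 83.0 and 106, a ratio of 0.649 (0.366 by totals). Trim2 had 29, 5 and 6 reads. Trim37, the MATH-domain ligase of centriole control, went from 276 to 179 and 77.2, 3.58-fold lower at 4 h (2.95 to 4.35). Trim45 had 27.0, 8.73 and 19.6, on 42, 4 and 36 reads, and was lower at 2 h in all 4 scalings.

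At 2 h members were likewise called in both directions. There were 14 members higher, beside 20.5% of all genes, and 13 lower, beside 24.7%, with a median of -0.37 for members against -0.05 for all genes. By library totals there were 10 higher, beside 13.7%, and 20 lower, beside 39.9%. The 2 h and 4 h comparisons share the 0 h library, so a deviation of that library enters both. Neutrophil markers summed to values of 4717, 9910 and 7040 at 0 h, 2 h and 4 h, and macrophage markers to 335035, 370346 and 335029. The part of the neutrophil markers in these differences was not tested.

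Of the 40 members with 30 reads, 13 had their lowest value at 2 h, beside 29.9% of all genes with as many reads, and 14 by library totals, beside 34.5%. Trim23, a ligase with an ARF GTPase domain, had 248 at 0 h, 54.6 at 2 h and 196 at 4 h, 4.54-fold lower at 2 h (3.03 to 7.10). The others were Trim5, Trim11, Trim27, Trim32, Trim33, Trim39, Trim41, Trim44, Trim45, Trim59, Trim62 and Trim65. The 2 h reads were few behind some of these values, at 25 for Trim23, 13 for Trim59, 4 each for Trim62 and Trim45, 40 for Trim5 and 129 for Trim33, and the 2 h library is the shallowest; the part of depth or of that 1 library in this pattern was not tested.

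Between 2 h and 4 h, 10 members were higher, beside 17.9% of all genes, and 4 were lower, beside 15.2%. In all 4 scalings these were 5, beside 13.7%, and 4, beside 12.7%. With 30 reads as well, Trim30a, Trim30d, Trim23 and Trim62 were higher and Trim16, Trim37 and Trim47 lower. Of the 40 members with 30 reads in at least 1 library, 21 were highest at 0 h, 5 at 2 h and 14 at 4 h, beside 41.4%, 23.6% and 35.0% of the 12749 genes compared with as many reads. By library totals these counts were 23, 4 and 13, beside 69.0%, 13.3% and 17.8%.

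The signalling members also moved in both directions. Of the 13 listed, 11 were compared at 4 h, of which Trim14, Trim21, Trim25, Trim26, Trim30a and Trim56 were higher, Trim8 and Trim65 lower, and Trim23, Trim27 and Trim32 neither. These 6 and 2 stand beside 22.2% and 23.6% of all genes, and in all 4 scalings 4 were higher and 1 lower, beside 13.1% and 17.0%. With reads in 1 library of at least 30, 16 members were higher at 4 h, 13 of them with a promoter window, and 7 of these 13 had the GAAANNGAAA element, beside 7.81% of the 1819 genes of any kind called higher with as many reads and a window, and 3.99% of all genes; among the 7, Trim30a with Trim30d and Trim12a with Trim12c are near copies in this stretch. Of 10 such members that were lower, 7 had a window and none had the element, beside 3.03% of all such genes, and of 14 that were neither, 10 had a window and 1 had it, beside 3.15%. Trim2, called lower on 29 reads at 0 h and 6 at 4 h and so below this read count, has the element, which makes it 1 of 8 windows over all members called lower; this is a count with no test, and the tandem copies are counted singly.

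Genes that work with TRIM ligases were followed as a list of 32 ubiquitin-conjugating enzymes, sensors, adaptors, kinases, IRF transcription factors, deubiquitinases and the modifier Isg15 with its protease Usp18. At 4 h 16 were higher, beside 22.2% of all genes, 10 in all scalings, beside 13.1%, and 2 were lower in all scalings, beside 17.0%. The list was chosen with earlier results of these data known, and all 32 had at least 30 reads. The background reaches down to a mean value of 1, so these shares only describe a chosen list. The RNA sensors bound by Trim25 and Trim65, Ddx58 (RIG-I) and Ifih1 (MDA5), were 11.6-fold and 33.2-fold higher, and Isg15, the ubiquitin-like modifier, was 83.6-fold higher. The adaptor Mavs was 4.46-fold lower and Tab1, a partner of the kinase TAK1, was 3.57-fold lower. By library totals Ddx58, Ifih1 and Isg15 were 6.55-fold, 18.7-fold and 47.2-fold higher, and Mavs and Tab1 were 7.89-fold and 6.31-fold lower.

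In AAV-SHISA3 against AAV-GFP the family changed little and in both directions. Trim56 and Trim30c rose, Trim33 and Trim35 fell, and the most abundant members, Trim25 and Trim30a, had nearly equal levels. The limma fit, with a trended variance prior, log2(TPM + 1) values of 11218 genes and Benjamini-Hochberg adjustment, put 2 of 39 members past the threshold of 0.05 as higher, beside 2.23% of all genes, and 2 as lower, beside 4.1%. At an unadjusted p under 0.05 there were 6 higher, beside 8.21%, and 8 lower, beside 19.8%. The median difference was -0.04 for the members and -0.10 for all genes.

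These calls rest on 2 samples per group, so small that the exact permutation p of 1 gene (two-sided) is at least 0.333, and none of the 4 was kept when any 1 sample was left out, although the differences then stayed at 0.70 to 1.05 for Trim56, 0.53 to 0.88 for Trim30c, -0.70 to -0.58 for Trim33 and -0.39 to -0.34 for Trim35. With each sample centred on its median, which moved the median of all genes to 0.01, there were 6 higher, beside 3.65%, and 1 lower, beside 2.05%. The 8 neutrophil markers summed to 593 and 565 TPM in AAV-GFP and to 1090 and 681 TPM in AAV-SHISA3, with none at 0 in all samples, highest in AAV-SHISA3 replicate 1; their part in these differences was not tested.

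Trim56 had 20.3 and 26.2 TPM in AAV-GFP and 42.5 and 44.1 TPM in AAV-SHISA3. Its groups were well apart, with a difference of 0.88 ± 0.13 (SE) on the log2 scale and a limma adjusted p of 0.0280. Trim30c had 17.7 and 19.9 TPM against 35.4 and 27.5 TPM. The spread within AAV-SHISA3 was wide but did not reach AAV-GFP, and the difference was 0.71 ± 0.14 (SE) with a limma adjusted p of 0.0492.

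Trim33 had 15.7 and 17.3 TPM in AAV-GFP and 9.76 and 10.7 TPM in AAV-SHISA3, both lower. Its difference was -0.64 ± 0.11 (SE) with a limma adjusted p of 0.0368. It was the member that also stayed past the threshold as lower after centring, with a limma adjusted p of 0.0495, close to the threshold. Trim35 had 74.3 and 76.6 TPM against 58.1 and 58.5 TPM, a difference of -0.37 ± 0.076 (SE) with a limma adjusted p of 0.04998, at the threshold itself.

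**Figure D3:**
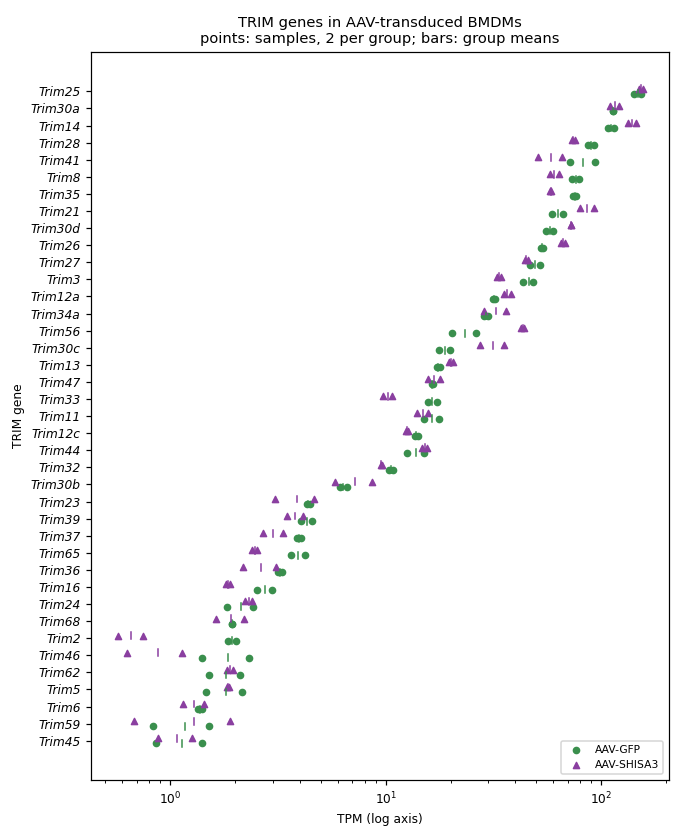
TPM (log axis) of the 39 TRIM genes averaging 1 TPM or more, with green circles for the 2 AAV-GFP samples, purple triangles for the 2 AAV-SHISA3 samples and bars for group means. The purple points of Trim56 and Trim30c lie to the right of the green ones, those of Trim33 and Trim35 to the left.

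By the order of the samples alone, 8 members had both AAV-SHISA3 samples above both AAV-GFP samples, beside 18.2% of all genes, and 15 had both below, beside 41.2%. The groups of the other 16 overlapped. The 4 members with an unadjusted p under 0.05 and a positive difference that missed the adjusted threshold were Trim26, Trim21, Trim30d and Trim14. Trim21 had 59.3 and 66.6 TPM against 92.8 and 79.4 TPM, 0.44 on the log2 scale with a limma adjusted p of 0.0707.

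Trim26 had 53.5 and 52.5 TPM against 68.3 and 65.4 TPM, and Trim30d 55.5 and 59.8 TPM against 72.7 and 72.6 TPM, both 0.33 on the log2 scale. Trim14 had 108 and 114 TPM against 133 and 145 TPM, 0.32 on the log2 scale. Trim26, Trim21, Trim30d and Trim14 passed the adjusted threshold once samples were centred. Nans, which overlaps Trim14 on the opposite strand, went the other way, with 61.0 and 60.1 TPM against 39.9 and 41.6 TPM.

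The 6 members with a negative difference at an unadjusted p under 0.05 and an adjusted p above 0.05 were Trim3, Trim2, Trim8, Trim28, Trim65 and Trim41. Trim3 had 43.6 and 48.5 TPM against 32.9 and 34.4 TPM, -0.44 on the log2 scale with a limma adjusted p of 0.0530. Trim28 had 93.0 and 87.4 TPM against 72.9 and 75.5 TPM, -0.28, and Trim8 had 73.2 and 79.2 TPM against 57.8 and 63.4 TPM, -0.33. These are among the more abundant members, while Trim2, at 1.85 and 2.01 TPM against 0.75 and 0.57 TPM, is one of the lowest.

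Trim41 had 71.7 and 93.7 TPM against 51.2 and 65.8 TPM, and Trim65 had 3.63 and 4.24 TPM against 2.39 and 2.54 TPM. Trim30a and Trim25, the most abundant members in AAV-GFP, had groups that overlapped. Trim30a had 114 and 113 TPM against 121 and 110.4 TPM, a difference of 0.03 (95% interval -0.17 to 0.23). Trim25 had 142 and 153 TPM against 149.9 and 156 TPM, a difference of 0.05 (95% interval -0.14 to 0.24). A difference of 2-fold in either direction lies outside these intervals, which are limma's and rest on the same 4 samples.

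**Figure D4:**
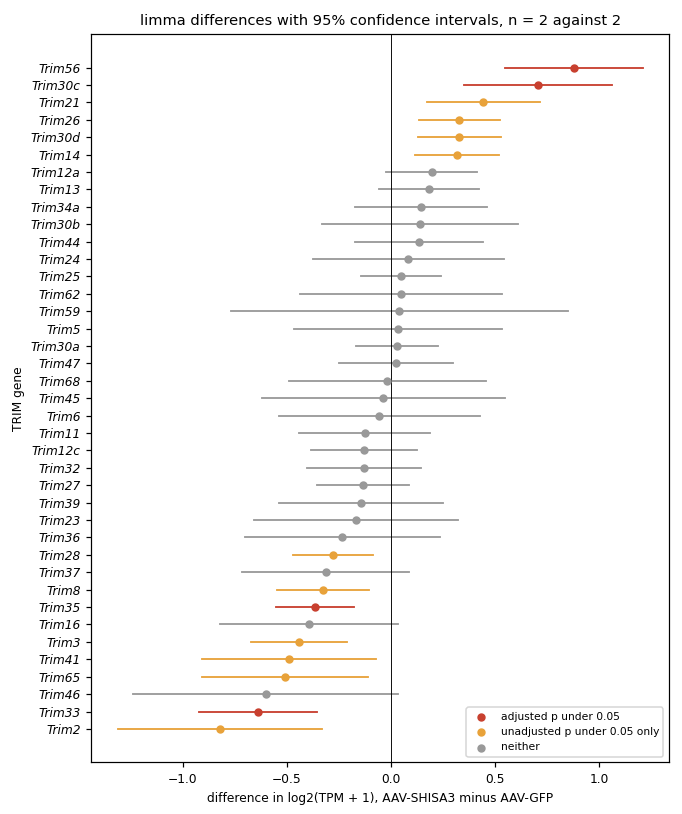
Difference in log2(TPM + 1), AAV-SHISA3 minus AAV-GFP, with limma's 95% confidence interval for each of the 39 members (n = 2 against 2), coloured by adjusted and unadjusted p. Trim56 at 0.88 and Trim30c at 0.71 are the 2 highest; the 2 lowest are Trim2 at -0.82 and Trim33 at -0.64.

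By domain, the 3 NHL genes compared, Trim2, Trim3 and Trim32, all had both AAV-SHISA3 samples below both AAV-GFP samples, beside 41.2% of all genes, with a median of -0.44. The 9 members of the chromosome 7 cluster had a median of 0.14, beside -0.10 for all genes, with 3 above, beside 18.2% of all genes, 1 below and 5 overlapping. The 3 chromatin co-regulators had a median of -0.28, with 2 below. Of the signalling members, 11 were compared, 4 were above and 4 below, beside 18.2% and 41.2% of all genes, and their median was 0.03.

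Of the partner genes, 31 were compared and 1 rose past the threshold, beside 2.23% of all genes. It was Ikbkg, which encodes NEMO, the ubiquitin-binding subunit of the IκB kinase complex, with 36.0 and 35.7 TPM against 50.8 and 52.7 TPM (0.52 ± 0.081 SE on the log2 scale, limma adjusted p of 0.0295). None fell past the threshold, beside 4.1%. At an unadjusted p under 0.05 there were 4 of each direction, beside 8.21% higher and 19.8% lower among all genes, among them Ifih1 at 0.36 and Mavs at -0.41.

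The experiments share no sample, so the members' values can be set side by side. Of the 16 members called higher at 4 h of LPS with 30 reads, 8 had both AAV-SHISA3 samples above both AAV-GFP samples, 4 had both below and 4 overlapped. Beside these stand 18.2% above and 41.2% below among all genes of the AAV test, and 33.4% above and 27.2% below among the 2114 genes of any kind that were called higher at 4 h with 30 reads and compared in both experiments. Of the 10 called lower, 9 with 30 reads and Trim2, none was above, 5 were below and 5 overlapped, beside 9.77% above and 57.0% below among all 1966 such genes. Of the other 13 compared in both, none was above, 6 were below and 7 overlapped, beside 15.9% and 42.4% among 6038 genes. The shares below lie near these backgrounds.

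The 8 members above in both were Trim12a, Trim13, Trim14, Trim21, Trim26, Trim30c, Trim30d and Trim56. On the log2 scale, their AAV differences ran from 0.18 for Trim13, which was at 3.63 at 4 h of LPS (2.81 by totals), to 0.88 for Trim56, which was at 1.71 (0.89 by totals). Trim30c was at 0.71 in AAV-SHISA3 and at 4.77 over LPS (3.95 by totals). Trim35, Trim36, Trim46 and Trim12c were higher at 4 h of LPS and lower in both AAV-SHISA3 samples, and of these Trim35 passed the test. The cells of the experiments differ in more than the agent, since 1 was transduced for 48 h and the other not, so the comparison is one of values only.

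**Figure D5:**
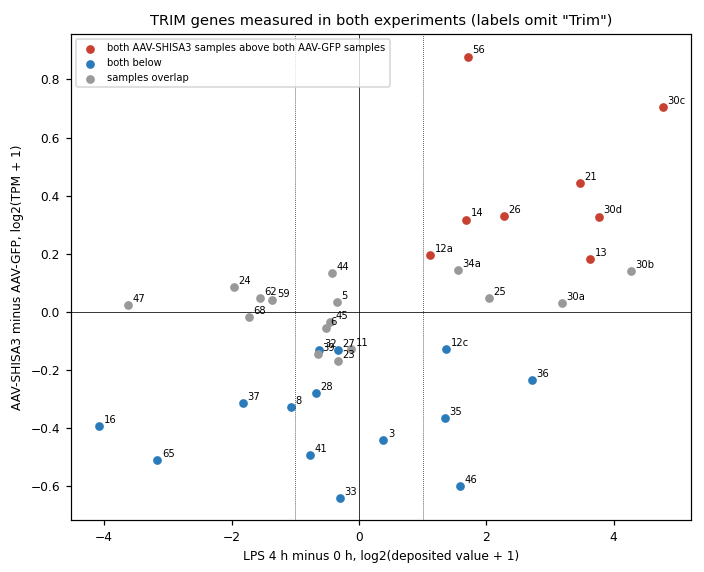
Difference at 4 h of LPS (x axis, log2 of deposited value + 1) against that in AAV-SHISA3 (y axis, log2 of TPM + 1) for 38 TRIM genes with 30 reads that were compared in both experiments, labelled by number and coloured by the order of the AAV samples. All red points, 8 genes with both AAV-SHISA3 samples above both AAV-GFP samples, lie to the right of the dotted line at 2-fold higher.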

How the data were processed

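The LPS table as deposited holds 1 signal value per gene and library: the reads of a gene over a factor of that library. Dividing by the step between values gave whole reads for 100% of values within 0.01. The AAV table as deposited holds values whose sums, 999778 to 999818 per sample, led them to be read here as TPM; its header names no unit. The submitters' processing notes name the build mm9; the aligner and counter are not given in the sources used here. Every sample column was used.

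The rule that found the members used names only, but the family, its role groups and the other lists were all chosen with earlier results of these data known. LPS differences were taken on log2(value + 1) among 17854 genes with a mean of at least 1, called at 2-fold, with exact binomial 95% intervals of the ratio; ratios in the text carry no pseudocount, and none is given against 3 reads or fewer on both sides. The 11218 AAV genes averaging 1 TPM or more were tested with limma 3.58.1 in R 4.3.3 on log2(TPM + 1), with a trended variance prior and Benjamini-Hochberg adjustment. TMM factors came from edgeR 4.0.16. On simulated AAV data over 11218 genes, 1 run held 100 genes changed by 1 and 100 changed by 2 on the log2 scale. All of both were recovered, with 13 false calls in that run, and a run with no changed gene gave 0 calls. The simulated noise followed the trend of spread with level alone, with no spread particular to a gene. These counts therefore do not measure the power or error rate of the test on the real samples. Positions, exon lengths and shared 31-base words came from the GRCm38 annotation GENCODE M21, where 99.2% of LPS identifiers and all 68 members were found; promoter windows are from RefSeq on GRCm38.p6. Counts of all genes across both experiments used symbols found once in each table. Described in detail were members called over LPS on at least 30 reads, members past the threshold or at an unadjusted p under 0.05 with groups apart in the AAV test, and the 5 most abundant in AAV-GFP; a few others are named as the remainder of a group or as contrasts.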

Additional observations from a re-analysis of the deposited data

How the results depend on the processing

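For LPS, scaling reads to the library totals changed the counts most. Members called lower became 20 at 2 h and 22 at 4 h, members called higher at 4 h became 11, and those higher at 4 h against 2 h became 5; a pseudocount of 5 made the last 6. Of the named LPS values under these alternatives, 282 stayed within their counting interval and 75, all under centring or library totals, moved further; no called value changed direction. For AAV-SHISA3 against AAV-GFP, without the variance trend or without the filter on low values there were 0 members higher and 0 lower. Without the trend the differences are the same and only their p changes; 1 gene of all tested was then higher and 4 lower, and without the filter 0 were higher. A pseudocount of 0.1 left 1 lower, Trim33, and centring gave 6 higher and 1 lower. Leaving out 1 sample gave 0 higher and 0 lower in each of the 4 cases, with the lone sample assumed to vary like the other group; the difference of Trim25 then ranged from -0.0061 to 0.103 and that of Trim30a from -0.037 to 0.096 on the log2 scale, each with 1 negative value, without AAV-GFP replicate 1 and without AAV-SHISA3 replicate 1. With the replicate number as a block there were 3 members higher, Trim56, Trim30c and Trim14, and 4 lower, Trim35, Trim33, Trim3 and Trim41. The replicate 1 samples of the groups deviated together with a correlation of 0.19 across genes, but with 2 pairs and no label that ties them they share only a number. The cause of these changes was not tested.

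The LPS libraries are 1 per time point, so no spread between cultures is known, and intervals cover counting error only. At 2 h a member needs more than 3 reads, a value of 6.55, to exceed the floor. With 2 samples per AAV group and unknown depth, differences near 0 are bounded only by their intervals.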

Other observations

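Of 8 TRIM relatives that carry other names, 6 were compared over LPS, and 4 were at least 2-fold higher at 4 h in all 4 scalings, beside 13.1% of all genes. Mefv, which encodes pyrin, a sensor that assembles an inflammasome, went from 380.2 at 0 h to 6562 at 2 h and 6630.2 at 4 h, 17.4-fold higher. Mid1, a microtubule-bound ligase, went from 28.9 to 284 and 480.4, 16.6-fold higher. Pml, the organiser of PML nuclear bodies, was 7.22-fold higher, and Rnf135, a ligase of RIG-I also called Riplet, was 4.31-fold higher. By library totals the 4 h ratios of Mefv, Mid1, Pml and Rnf135 were 9.85, 9.38, 4.08 and 2.44. Bspry, with 10 reads at 0 h and 2 at 4 h, was called lower, and Cmya5, with 10 and 13 reads, was neither. In the AAV experiment Mefv, Mid1, Pml and Rnf135 were the 4 compared, and each had both AAV-SHISA3 samples above both AAV-GFP samples, beside 18.2% of all genes. Mefv had 25.2 and 28.1 TPM against 33.2 and 39.8 TPM. None of the 4 passed limma's adjusted threshold, 3 had an unadjusted p under 0.05, and their median difference was 0.22.

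Reads counted to Trim17 in the LPS libraries were 1024, 607 and 1928 at 0 h, 2 h and 4 h, but it was at most 0.48 TPM in the AAV samples. How many of these reads came from Hist3h2a, over the exons they share, cannot be told from these values. Hist3h2a, the histone gene that shares 708 exonic bases with it and is listed as H2aw in the AAV table, had 1277, 653 and 2213 reads and 8.27 to 11.8 TPM.

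Among the 32 partner genes, Tnfaip3, Isg15 and Usp18 had the largest ratios at 4 h of LPS. Tnfaip3, which encodes the deubiquitinase A20, went from 393 to 50159 at 2 h and 34388 at 4 h, and Usp18, the ISG15 protease, from 205 to 5601 and 13212. In the AAV samples Tnfaip3 had 78.2 and 89.9 TPM against 107 and 117 TPM, with a limma adjusted p of 0.0671, and Isg15 had 2023 and 1745 TPM against 1963 and 1698 TPM.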
